A study of Mus musculus with 6 samples.

Results

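A set of 10 genes of natural killer (NK) cells and of cytotoxic killing were followed in mouse ovarian tumors that grew with or without Tgm2, the gene of transglutaminase 2, in the host. The genes are Klrb1c, Ncr1, Klrk1 and Klrd1 (surface receptors), Nkg7, Gzma, Gzmb and Prf1 (contents of the lytic granule), Eomes (a transcription factor) and Ifng (a cytokine). They were taken by symbol, and all 10 were found among the 20076 genes of the deposited table. Bulk polyA RNA came from primary tumors, 3 grown in wild-type (WT) C57BL/6 mice and 3 in Tgm2 knockout mice, collected 6 weeks after both groups had received ID8 Trp53-/- Brca1-/- cells into the bursa around each ovary. ID8 is a line of mouse ovarian surface epithelium, here without Trp53 and Brca1. Mice entered experiments at 6 to 10 weeks of age. The knockout was in the host and not in the injected cells, so RNA of tumors from knockout mice mixes cells of both Tgm2 genotypes. Per the paper, WT and knockout mice were obtained from different sources and bred in-house. Whether littermates were used, and the background strain of the knockout mice, are not stated there. Genotype was therefore not separated from colony or genetic background, and their part in the differences below was not tested. Nothing in the labels says how the replicates were raised or whether tumors were pooled, so p-values measure only the spread between these 6 samples.

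The values were treated as normalized counts, that is estimated read counts divided by a factor for the depth of each tumor. The column sums were 34801694, 35325875 and 33916288 for the WT tumors, in the order of their replicate numbers, and 32316613, 35827822 and 37717165 for the knockout tumors; values of single genes are given in the same order below. From the steps between low values, 1 read was worth between 0.943 and 1.08 normalized counts. A value of 10 therefore rests on about as many reads, and counting error alone is wide for the rarest of these genes. Fold changes below are differences of log2(value + 1), knockout minus WT, from a limma fit over 19667 genes, with standard error (SE), and this scale makes changes of low genes look smaller than they are. Adjusted p-values are Benjamini-Hochberg values over all of those genes.

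NK cells are innate lymphocytes that kill without prior priming by antigen. A balance of activating and inhibitory receptors decides whether an NK cell fires. Killing proceeds by release of granules in which perforin opens the target membrane and granzymes, a family of serine proteases, enter and cleave proteins of the target. Cytotoxic CD8 T cells use the same granule proteins, and interferon gamma, the product of Ifng, is secreted by NK cells and T cells alike. In bulk RNA, fewer cells of a type and less RNA per cell cannot be told apart.

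The start of transcription of these genes is shown first, because RUNX factors, which bind the letters TGTGGT, are known regulators of NK cell and cytotoxic T cell genes. Promoters of 300 bases (250 before and 50 after the start, RefSeq, GRCm38.p6) were given for 9 of the 10 genes, all but Klrd1. TGTGGT, read on both strands, was found in 7 of these 9 genes, namely Gzma, Gzmb, Klrb1c, Klrk1, Ncr1, Nkg7 and Prf1, and not in Eomes or Ifng. Among 27025 genes with a promoter, 18.9% held it, and among all 32851 promoters 16.8%. Each window below runs 5′ to 3′ along the strand of its gene, with the match in capitals; where the match lies on the other strand it reads ACCACA. The windows are chr10:61297689-61297728 (plus) for Prf1, chr13:113101009-113101048 (minus) for Gzma, chr14:56262346-56262385 and chr14:56262405-56262444 (minus) for Gzmb, chr7:4337522-4337561 and chr7:4337657-4337696 (plus) for Ncr1, chr6:129623971-129624010 (minus) for Klrk1 and chr6:128788708-128788747 (minus) for Klrb1c. The Klrb1c window lies before the RefSeq start and outside every exon of GENCODE M21, whose gene model extends further upstream.
Prf1: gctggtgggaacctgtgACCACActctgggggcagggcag
Gzma: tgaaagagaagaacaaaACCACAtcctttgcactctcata
Gzmb, nearer the start: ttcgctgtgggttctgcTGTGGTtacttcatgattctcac
Gzmb, farther from the start: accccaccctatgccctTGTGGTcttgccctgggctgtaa
Ncr1, farther from the start: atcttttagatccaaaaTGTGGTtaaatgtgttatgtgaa
Ncr1, nearer the start: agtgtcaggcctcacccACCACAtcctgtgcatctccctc
Klrk1: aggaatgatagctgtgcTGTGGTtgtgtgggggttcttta
Klrb1c: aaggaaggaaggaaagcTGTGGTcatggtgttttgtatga
The window of Nkg7 is not shown. The match began 130 bases before the start in Prf1, 50 in Gzma, 34 and 93 in Gzmb, 129 in Klrk1, 89 in Klrb1c and 83 in Nkg7. It lay 176 and 41 bases before the more upstream of the starts of Ncr1. The letters TCACACCT, bound by T-box factors such as Eomes, were found in 1 of the 9 genes, Nkg7, against 1.48% of all genes. STAT factors bind TTCNNNGAA, which was found in Gzmb, Ifng and Nkg7, against 9.55% of all genes. No match of any of the 3 motifs overlapped another in these promoters. These are matches of letters and not sites of binding, which was not measured here.

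Some tumors stood apart before any comparison. Knockout tumor 1 held far more RNA of ovarian steroid and follicle genes than the other 5, with 22480 normalized counts of Cyp11a1, the side-chain cleaving enzyme of steroid synthesis, against 158 to 8648. Knockout tumor 2 had the highest sum over 17 white adipocyte markers, 224600 against 45360 to 135600. WT tumor 3 had 52180 normalized counts of Ltf (lactoferrin) and 8047 of Epcam, where no other tumor exceeded 3967 and 1307, and the lowest sum over 12 general leukocyte genes, 18620. The labels call the cells cancer cells, and the epithelial keratin Krt8 lay between 10370 and 21950 in all tumors, yet Ptprc, which encodes the leukocyte antigen CD45, lay between 1583 and 3173. The targeted gene Tgm2 was measured at 14980, 12150 and 13180 in WT tumors and at 5853, 6071 and 8157 in knockout tumors, a log2 fold change of -1.02 (SE 0.22, adjusted p = 0.391). Every knockout tumor was below every WT tumor for Tgm2.

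Across the 10 genes, 9 had a positive log2 fold change, against 47.3% of all genes tested, and the median was 0.95, against -0.027 over all genes. In 5 genes, Gzma, Prf1, Ncr1, Klrd1 and Ifng, every knockout tumor was above every WT tumor, an arrangement found in 5.18% of all genes. None was called by limma at an adjusted p-value of 0.05 with a log2 fold change of at least 1 in size (0 of 10, against 0.102% of all genes in either direction), and 0 of 10 passed even an unadjusted p-value of 0.05, which 3.4% of all genes passed as higher in knockout tumors. That last count was 4 without the variance trend, 2 without knockout tumor 1 and 3 without both this tumor and WT tumor 3, and 0 or 1 under the other alternatives. The spread between tumors of the same group was wide throughout. Knockout tumor 3 was the highest of the 6 in 6 of the 10 genes (17.4% of all genes had their maximum there), and WT tumor 3 was the lowest in 6 (21.9% of all genes). Without knockout tumor 1, 8 of the 10 were separate, where 9.63% of all genes behaved so, the 3 additional genes being Nkg7, Klrb1c and Klrk1. The median log2 fold change was 1.33 without knockout tumor 1, 0.66 without WT tumor 3 and 0.94 without both of them. The smallest p that an exact permutation test allows for 3 tumors in each group is 0.1.

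**Figure D1:**
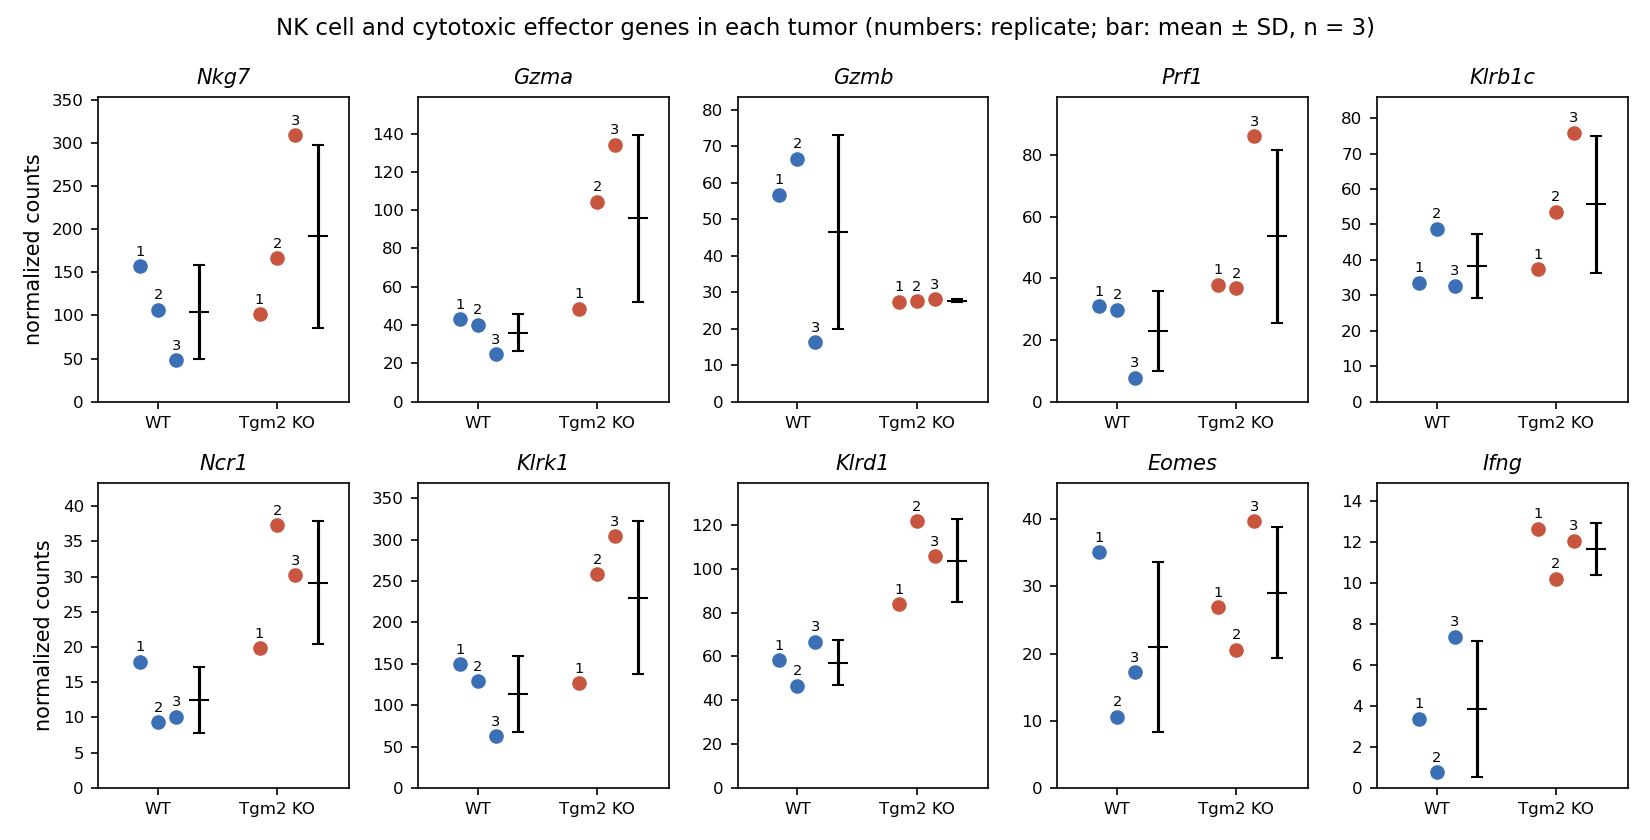
Normalized counts (vertical axis, linear, from 0) of the 10 genes in each WT (blue) and Tgm2 knockout (red) tumor, with replicate numbers beside the points and the mean ± SD (n = 3) as a black bar. The groups are separate in Gzma, Prf1, Ncr1, Klrd1 and Ifng, while the 3 knockout values of Gzmb, 27.4 to 28.1, lie within the WT range of 16.2 to 66.6.

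Among the receptors, Ncr1 and Klrd1 separated the groups and Klrb1c and Klrk1 did not. Ncr1 (chr7:4337724-4345164, plus strand, GRCm38) encodes NKp46, an activating receptor that is among the most restricted markers of NK cells. NKp46 transcripts were counted at 18.0, 9.36 and 10.1 in WT tumors and 19.9, 37.3 and 30.2 in knockout tumors, with knockout tumor 1 only just above WT tumor 1. The log2 fold change was 1.17 (SE 0.62, 95% interval -0.26 to 2.60, adjusted p = 0.889, exact permutation p = 0.1). Klrd1 (chr6:129591782-129598775, plus) encodes CD94, the partner of the NKG2 receptors that Klrc genes encode. Normalized counts of Klrd1 were 58.3, 46.6 and 66.8 in WT tumors and 83.9, 122 and 106 in knockout tumors. The gap between its groups was narrower than the range within either group, and its log2 fold change was 0.85 (SE 0.45, adjusted p = 0.889, exact permutation p = 0.1).

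Klrk1 (chr6:129610323-129623864, minus) encodes NKG2D, an activating receptor for stress-induced ligands that CD8 T cells also carry. Its values were 150, 129 and 62.4 in WT tumors and 126, 259 and 305 in knockout tumors, so that knockout tumor 1 lay within the WT range and the other 2 above it. The log2 fold change was 1.01 (SE 0.50, 95% interval -0.15 to 2.16, adjusted p = 0.887), 0.63 without WT tumor 3 and -0.15 with a fitted term for the mean level of white adipocyte markers (a covariate). Klrb1c (chr6:128778485-128789215, minus) encodes NK1.1, the antigen by which NK cells of C57BL/6 mice are usually stained. Normalized counts of 33.6, 48.8 and 32.7 in WT tumors stood against 37.3, 53.6 and 76.0 in knockout tumors. The groups overlapped, and the log2 fold change was 0.49 (SE 0.54, adjusted p = 0.913), 0.24 without knockout tumor 3 and -0.26 with the white adipocyte covariate.

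The granule genes differed in direction. Gzma (chr13:113093825-113100981, minus) encodes granzyme A, a tryptase. Granzyme A transcripts were at 43.2, 40.1 and 24.8 in WT tumors and at 48.6, 105 and 134 in knockout tumors, with knockout tumor 1 just above the WT range and knockout tumors 2 and 3 far above it. Its log2 fold change of 1.30 (SE 0.57, 95% interval -0.0067 to 2.61) had the smallest unadjusted p-value of the 10 genes, 0.0509, with an adjusted p of 0.867 and an exact permutation p of 0.1. It was 0.63 with the mean of general leukocyte genes as a covariate and 0.12 with that of white adipocyte markers. Prf1 (chr10:61297833-61304680, plus) encodes perforin. Perforin transcripts stood at 30.9, 29.8 and 7.79 in WT tumors and 37.9, 36.8 and 86.0 in knockout tumors. Knockout tumors 1 and 2 were close to WT tumors 1 and 2, and WT tumor 3 and knockout tumor 3 were the extremes. The log2 fold change of Prf1 was 1.30 (SE 0.72, adjusted p = 0.889, exact permutation p = 0.1), and without WT tumor 3 it was 0.69.

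Nkg7 (chr7:43437073-43438249, plus) encodes a membrane protein of the granule that takes part in its release. Normalized counts of Nkg7 were 157, 107 and 48.1 in WT tumors and 101, 166 and 309 in knockout tumors, with the groups overlapping. Its log2 fold change was 0.89 (SE 0.59, adjusted p = 0.891), and it was 0.42 without WT tumor 3, 0.47 without knockout tumor 3, -0.029 with the general leukocyte covariate and 0.061 with the white adipocyte covariate. Gzmb (chr14:56258838-56262260, minus) encodes granzyme B, which cleaves after aspartate and triggers caspases in the target cell. It alone of the 10 had a negative log2 fold change, -0.50 (SE 0.67, 95% interval -2.04 to 1.03, adjusted p = 0.930). Normalized counts of 56.7, 66.6 and 16.2 in WT tumors stood against 27.4, 27.5 and 28.1 in knockout tumors. WT tumor 3 set the overlap. Without it the log2 fold change was -1.12 and both remaining WT tumors were above every knockout tumor, as in 9.45% of all genes. Without WT tumor 2 the log2 fold change was -0.14.

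The ratio of Gzma to Gzmb, a comparison chosen after the values were seen, was 0.762, 0.602 and 1.53 in WT tumors and 1.77, 3.81 and 4.77 in knockout tumors. Knockout tumors were all above WT tumors, by 1.84 on the log2 scale (mean log2 ratio -0.17 ± 0.70 in WT and 1.67 ± 0.75 in knockout tumors, SD, n = 3). No test is given, because the pair was chosen for its opposite directions.

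Eomes (chr9:118478212-118486132, plus) encodes a T-box factor that NK cells need to mature and that effector CD8 T cells also express. Its values of 35.1, 10.6 and 17.2 in WT tumors and 26.9, 20.6 and 39.7 in knockout tumors overlapped, with a log2 fold change of 0.56 (SE 0.67, adjusted p = 0.919) that was 0.18 without WT tumor 2 and 0.997 without WT tumor 1. Ifng (chr10:118441046-118445892, plus) was the rarest of the 10 by normalized count. The values were 3.38, 0.774 and 7.39 in WT tumors and 12.7, 10.2 and 12.1 in knockout tumors. All knockout tumors were thus above all WT tumors, at low counts in both groups. Its log2 fold change of 1.65 (SE 0.78, 95% interval -0.14 to 3.43, adjusted p = 0.881, exact permutation p = 0.1) was the largest of the 10, but it was 0.98 with a pseudocount of 5 in place of 1 and 1.06 without WT tumor 2.

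**Figure D2:**
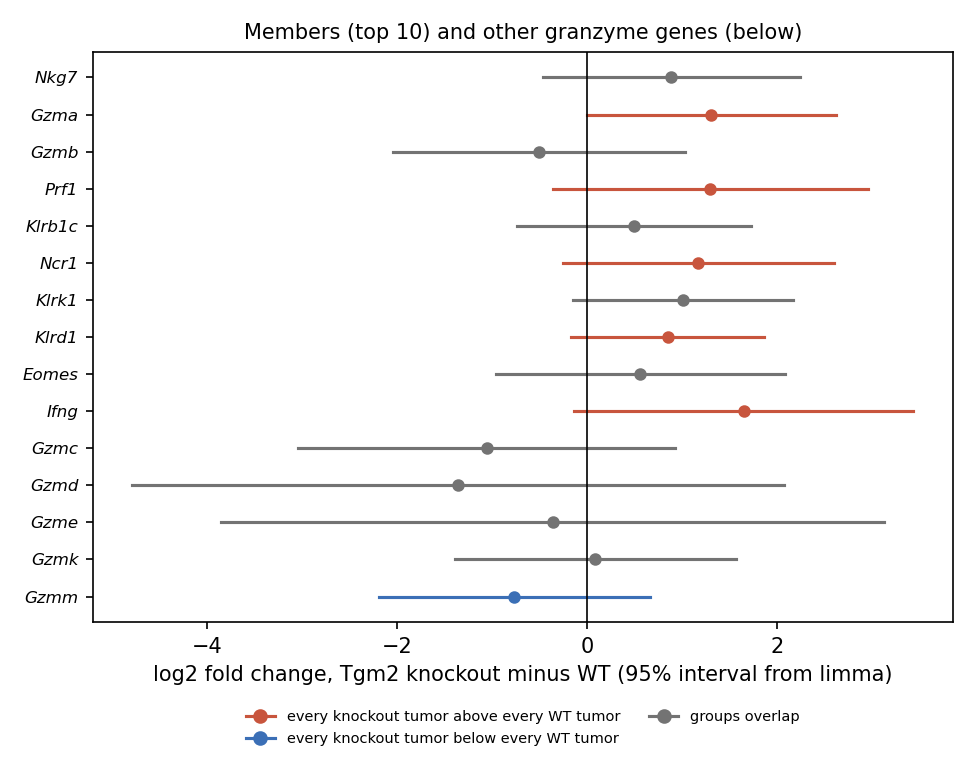
Log2 fold change (horizontal axis, knockout minus WT, with the 95% interval from limma) of the 10 genes and, below them, of the other granzyme genes tested; red marks genes in which all knockout tumors exceeded all WT tumors, blue the reverse and grey overlapping groups. All 15 intervals include 0, that of Gzma by the least, and Gzmb lies at -0.50 with Gzmm below it at -0.76.

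Levels of different genes can be set side by side, roughly, per kilobase of exon, with the exons of all annotated transcripts of a gene merged. That length can exceed the length of the transcripts present, so the order depends in part on the annotation. Klrk1, with 7183 merged bases against 914 for Nkg7, had the higher mean normalized count in WT tumors, 113.7 against 104.1. In WT tumors Nkg7 was the most abundant at 114 normalized counts per kb, and its range did not overlap that of Klrd1, next at 44.7. Gzma (35.8), Gzmb (32.4), Klrk1 (15.8), Klrb1c (13.0), Prf1 (8.84), Ncr1 (8.11), Eomes (5.05) and Ifng (2.97) followed in mean normalized counts per kb, each overlapping the next. In knockout tumors Nkg7 led at 210, followed by Gzma at 95.2 and Klrd1 at 81.0 per kb. The ranges of Nkg7 and Gzma overlapped, as did those of Gzma and Klrd1. Klrd1 was separate from Klrk1 at 32.01, and Prf1 (20.7), Gzmb (19.3), Ncr1 (18.9) and Klrb1c (18.8) formed a group of like mean levels per kb, separate from Ifng (9.0) and Eomes (7.0). Gzmb was thus the fourth most abundant per kb in WT tumors and the sixth in knockout tumors, with neighbors that were not separate from it in either group.

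Klrb1c, Klrk1 and Klrd1 belong to the lectin-like Klr receptors, most of which lie together in the NK gene complex on chromosome 6. Of 27 Klr genes listed, 24 could be tested. In 9 of them every knockout tumor was above every WT tumor and in 0 the reverse, against 5.18% and 5.33% of all genes, 21 had a positive log2 fold change, and the median was 0.88. None was called, while 5 passed an unadjusted p-value of 0.05 as higher in knockout tumors, against 3.4% of all genes, namely Klrb1, Klra3, Klra7, Klra9 and Klri2. Klrb1 and Klrh1, both among the 9, and Klra6, which overlapped, each reached the filter limit of 1 normalized count in only 1 WT tumor. They passed the filter through the knockout tumors, where they were higher, so their places in these counts and in the median support nothing. Klrb1 had the smallest p-value of the family, which supports nothing for the same reason. Its transcripts were at 0, 0.904 and 1.12 normalized counts in WT tumors, no more than about 1 read each, and at 26.6, 14.7 and 21.7 in knockout tumors (log2 fold change 3.75, SE 0.71, adjusted p = 0.261). The size of that value depends on the pseudocount, being 2.17 with 5 and 5.37 with 0.1. The neighboring paralogs Klrb1a, Klrb1b and Klrb1f overlapped between groups.

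Klra genes encode Ly49 receptors, most of which bind MHC class I molecules and inhibit the cell. Klra3 was measured at 6.97, 0 and 1.87 in WT tumors and 13.7, 11.8 and 17.1 in knockout tumors. Klra9 had 1.98, 1.09 and 4.26 against 14.9, 9.73 and 15.9. Klra7 had 12.2, 11.1 and 5.09 against 19.0, 33.6 and 34.1, and so all 3 were separate between groups at low counts. Klri2, an orphan receptor that can pair with Klre1, had 20.8, 30.2 and 19.2 against 41.7, 81.4 and 95.7. By contrast the most abundant Klr gene, Klra2, overlapped widely, with 577, 508 and 431 against 299, 935 and 626 (log2 fold change 0.16, SE 0.40). It is a Ly49 receptor found on myeloid cells, and its lowest and highest values were both in knockout tumors. Several Klra genes are close copies of each other, and how reads were divided among them was not tested. Whether genetic background differed between the groups in this gene complex, and so contributed to the values of Klrb1 and the other Klr genes, was not tested either.

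**Figure D3:**
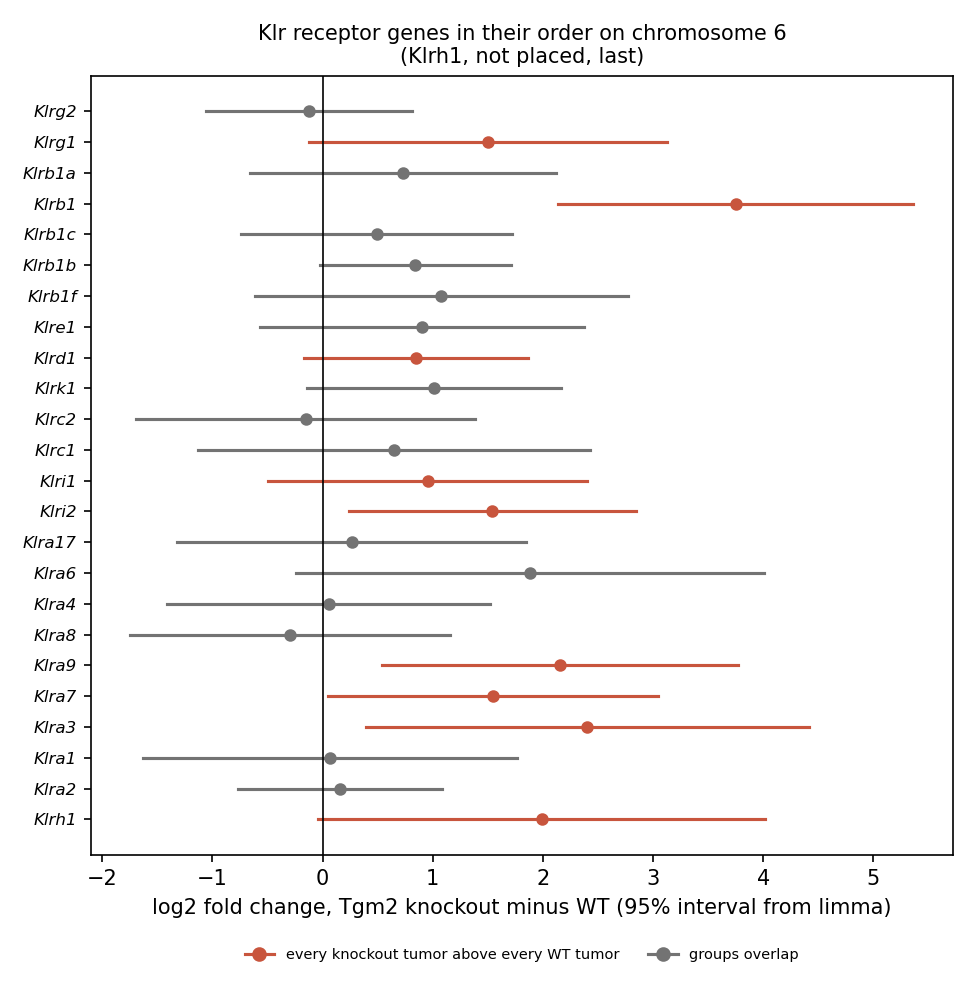
Log2 fold change (horizontal axis, knockout minus WT, with the 95% interval from limma) of 24 Klr receptor genes, 23 in their order along chromosome 6 and Klrh1, which was not placed, last; red marks genes in which all knockout tumors exceeded all WT tumors and grey overlapping groups. Klrb1 stands farthest right at 3.75, and 3 genes (Klra8, Klrc2 and Klrg2) lie left of 0.

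The other granzymes overlapped between groups, with the exception of Gzmm. Of 7 granzyme genes tested, 2 had a positive log2 fold change, Gzma and Gzmk (0.086), and the median was -0.50. Gzmm, a granzyme known from NK cells, was measured at 15.7, 12.2 and 21.3 in WT tumors and 9.22, 7.65 and 10.3 in knockout tumors, so every knockout tumor was below every WT tumor, an arrangement found in 5.33% of all genes (log2 fold change -0.76, unadjusted p = 0.253). Gzmc was measured at 25.5, 63.3 and 10.2 against 11.3, 25.5 and 5.43, and its WT mean per kb of exon, 36.9, was like those of Gzma and Gzmb. Gzmd and Gzme, close paralogs of Gzmc, were listed at 0 in WT tumor 3 and in knockout tumors 1 and 3 alike, and Gzmf was above 0 in WT tumor 2 alone. Gzmk had 32.99, 13.6 and 11.7 against 18.9, 17.9 and 19.2. Reads shared among Gzmc, Gzmd, Gzme and Gzmf could have been split between them by the quantification.

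Granule proteins and death ligands split between the directions. Of 12 such genes, counting Prf1 and Nkg7, 8 had a positive log2 fold change with a median of 0.25, 2 were separate with knockout tumors higher and 0 with knockout tumors lower, against 5.18% and 5.33% of all genes, and 0 were called. Fasl, the ligand of the death receptor Fas, was separate beside Prf1, with 10.5, 16.0 and 6.05 in WT and 17.8, 24.5 and 20.9 in knockout tumors. Lamp1, a general lysosomal membrane protein and the most abundant of the list, lay between 17340 and 27540 in all tumors with a log2 fold change of 0.080 (SE 0.28). Ctsh, a lysosomal cathepsin, had the smallest p-value of the list, with a log2 fold change of -0.55 (SE 0.30, unadjusted p = 0.103). Among 9 genes of granule release, such as Unc13d, Rab27a and Stx11, 0 were separate in either direction and the median was 0.18. Vamp8, a vesicle fusion protein found in many cell types, was the most abundant of these and had a log2 fold change of -0.37 (SE 0.23). Cells other than lymphocytes also express most of the genes of these 2 lists.

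Most receptors outside the Klr family had higher values in knockout tumors, like Ncr1, without passing adjustment. Of 20 such receptors and adaptors, 18 had a positive log2 fold change with a median of 0.63. In 7 the groups were separate with knockout tumors higher (5.18% of all genes), 4 passed an unadjusted p-value of 0.05 as higher (3.4% of all genes) and 0 were called. Slamf7, an activating receptor of NK cells that plasma cells and other leukocytes also carry, had the smallest p-value. It was measured at 456, 361 and 293 in WT tumors and at 637, 1146 and 1334 in knockout tumors (log2 fold change 1.44, SE 0.33, adjusted p = 0.470). The other 3 were Tigit, Slamf6 and Syk. Tigit, an inhibitory receptor shared with T cells, had 91.5, 19.7 and 34.6 against 137, 138 and 319. The most abundant gene, Fcgr3, an Fc receptor that macrophages share, overlapped, with 3669, 3077 and 2309 against 1692, 5393 and 3625.

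The ligands of these receptors had lower values in knockout tumors more often than higher ones. Of 12 ligand genes tested, 3 had a positive log2 fold change and 9 a negative one, against 47.3% of all genes with a positive value, and the median was -0.46. In 3 (Pvr, Clec2g and Clec2i) every knockout tumor was below every WT tumor, and in 0 the reverse, against 5.33% and 5.18% of all genes. Pvr and Clec2g passed an unadjusted p-value of 0.05, which 2.38% of all genes passed as lower, and 0 were called. Clec2g, of the family that Klrb1 receptors bind, was measured at 126, 77.4 and 55.6 in WT tumors and at 18.2, 30.3 and 21.3 in knockout tumors (log2 fold change -1.80, SE 0.56, adjusted p = 0.699). Pvr, which encodes CD155, the ligand that Tigit and Cd226 share, had 1608, 1266 and 1390 against 995, 944 and 1079. Clec2g and Clec2i lie on chromosome 6, as most Klr genes do, and the part of genetic background in their values was not tested. The NKG2D ligands Raet1d, Raet1e, H60b, H60c and Ulbp1 all overlapped between groups. Nectin2, the most abundant ligand, overlapped too, with 11990, 11780 and 7990 against 7093, 9617 and 11500.

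Transcription factors of the NK lineage had a median log2 fold change of 0.40 over 15 genes, 14 of them positive, against 47.3% of all genes. In 4, Tbx21, Id2, Prdm1 and Irf2, every knockout tumor was above every WT tumor, against 5.18% of all genes, and 0 were called. Tbx21 encodes T-bet, the T-box partner of Eomes and a driver of Ifng in NK cells and T helper cells. It was measured at 39.7, 10.4 and 10.1 in WT tumors and at 58.8, 40.2 and 98.0 in knockout tumors, with a log2 fold change of 1.85 (SE 0.72, unadjusted p = 0.0314, adjusted p = 0.819). WT tumor 1 was close to the lowest knockout tumor in Tbx21 and exceeded 2 of the knockout tumors in Eomes. The most abundant of the list, Ets1, overlapped (log2 fold change 0.31, SE 0.30).

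Cytokines that activate NK cells and the receptors for them split by gene. Of 20 genes, 5 passed an unadjusted p-value of 0.05 as higher in knockout tumors, Il2rb, Il12b, Il12rb1, Il21 and Stat4, and 1 as lower, Il18rap, against 3.4% and 2.38% of all genes. Of the 20 genes, 5 were separate with knockout tumors higher and 1 with knockout tumors lower, against 5.18% and 5.33% of all genes, and these were the genes that passed the unadjusted p-value, so the counts are not independent of each other. Il12rb1, a chain of the receptor for interleukin 12, was measured at 207, 90.0 and 88.7 in WT tumors and at 252, 285 and 590 in knockout tumors. Il2rb, the chain shared by the receptors for interleukins 2 and 15, had 600, 272 and 258 against 656, 633 and 1233. Stat4, which carries the interleukin 12 signal, had 102, 58.8 and 37.1 against 111, 137 and 221. In these 3 genes WT tumor 1 was the highest of its group and lay near the lowest knockout tumors. Il21 had the smallest p-value of the list but was barely detected, listed at 0, 0 and 0.958 in WT tumors and at 3.91, 7.43 and 11.2 in knockout tumors (adjusted p = 0.649). It passed the filter on low values through the knockout tumors alone, where it was high, so its place among the 5 higher genes supports nothing. Il18rap, part of the interleukin 18 receptor, was lower in every knockout tumor, with 1428, 575 and 764 against 416, 552 and 521. Il15, the cytokine on which NK cells depend for survival, overlapped, with 168, 230 and 195 against 143, 217 and 175. None of the 20 was called, and Il2rg, the most abundant, overlapped (log2 fold change -0.12, SE 0.34).

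Homing receptors and chemokines had a median log2 fold change of 0.33 over 20 genes, with 0 called. Only Cxcr3 and Cd27 were separate between groups, 2 of 20, with knockout tumors higher, against 5.18% of all genes. Cxcr3, the receptor by which activated NK cells and T cells follow interferon-induced chemokines, was measured at 130, 81.2 and 60.8 in WT tumors and at 243, 236 and 462 in knockout tumors (log2 fold change 1.78, SE 0.45, adjusted p = 0.566). Its ligand Cxcl9 had 2131, 764 and 321 against 1625, 5372 and 8048, with overlap through knockout tumor 1 (log2 fold change 2.36, unadjusted p = 0.0125). Another ligand, Cxcl10, differed by -0.074. Cx3cl1, the most abundant chemokine of the list, had a log2 fold change of 0.027 (SE 0.27).

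Targets of interferon gamma were followed because Ifng itself rests on few reads. Of 27 genes of its receptors, signaling and targets, 24 had a positive log2 fold change and the median was 0.69. At an unadjusted p-value of 0.05, 10 passed as higher in knockout tumors, against 3.4% of all genes, and 0 as lower. In 6 the groups were separate with knockout tumors higher, against 5.18% of all genes, and 0 were called. Iigp1, an interferon-inducible GTPase, had the smallest p-value, with 2260, 2011 and 1450 in WT tumors and 3158, 5023 and 6207 in knockout tumors (log2 fold change 1.30, SE 0.29, adjusted p = 0.433). Gbp2b, a guanylate-binding protein, had 157, 89.6 and 34.5 against 232, 436 and 695. The receptor chains Ifngr1 and Ifngr2 and the factor Irf1 had log2 fold changes of 0.13, -0.15 and 0.17. Interferons alpha and beta also induce many of these genes, and that part was not tested.

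**Figure D4:**
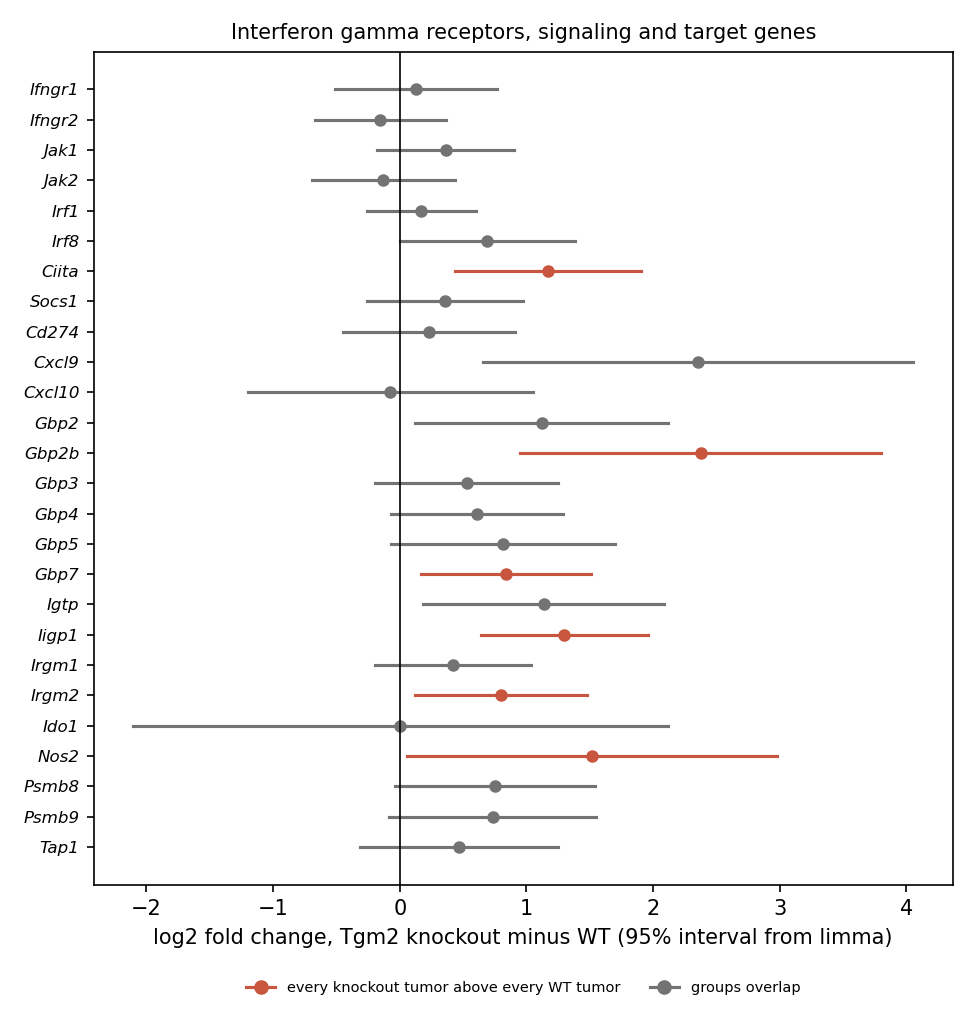
Log2 fold change (horizontal axis, knockout minus WT, with the 95% interval from limma) of the genes of the interferon gamma receptor, its signaling and its targets, 1 of the 27 not being shown; red marks genes in which all knockout tumors exceeded all WT tumors and grey overlapping groups. Gbp2b and Cxcl9 lie farthest right near 2.4, and the receptor chains Ifngr1 and Ifngr2 lie close to 0.

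Over all 10 lists of NK and cytotoxic genes, 165 of 177 genes could be tested. None was called. At an unadjusted p-value of 0.05, 26 passed as higher and 3 as lower, against 3.4% and 2.38% of all genes. With the white adipocyte covariate these counts were 6 higher and 7 lower, and with the general leukocyte covariate 9 higher and 8 lower. In 37 the groups were separate with knockout tumors higher and in 5 with knockout tumors lower, against 5.18% and 5.33% of all genes. Both counts of higher genes include Il21 and Klrb1, and the count of separate genes also includes Klrh1. These genes passed the filter through the knockout tumors, where they were high, so their places in the counts support nothing. The median log2 fold change was 0.39. With the 10 genes of the opening left out, the median over the remaining 155 was 0.34.

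Markers of T cells and of leukocytes in general also had positive log2 fold changes. Of 20 T cell markers all had a positive log2 fold change, against 47.3% of all genes, with a median of 0.88. In 4 (Cd3g, Cd4, Cd28 and Lck) the groups were separate with knockout tumors higher, against 5.18% of all genes, and 0 were called. Their sum was 9308, 7124 and 5871 in WT tumors and 8007, 8031 and 13550 in knockout tumors, and the most abundant was Tcf7. Cd4 had the smallest p-value, with 361, 138 and 160 against 449, 441 and 893 (log2 fold change 1.49, SE 0.45, adjusted p = 0.682). Cd8a overlapped, with 153, 110 and 114 against 123, 163 and 214 (log2 fold change 0.39). Cd8b1 overlapped too, with 77.5, 43.7 and 26.4 against 76.7, 91.2 and 142.5 (log2 fold change 1.14). General leukocyte genes, 12 in number with Laptm5 the most abundant, summed to 34870, 24460 and 18620 in WT tumors and to 24920, 43650 and 48620 in knockout tumors, with a median of 0.56. Knockout tumor 1, in which Nkg7, Klrk1 and Klrb1c lay within the WT range, was also the lowest knockout tumor in this sum.

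Set against these lists, the difference of the 10 genes shrank. Their mean log2 value was 5.34, 4.91 and 4.54 in WT tumors and 5.40, 5.81 and 6.19 in knockout tumors, a difference of 0.87. Minus the mean of the general leukocyte genes it was -5.67, -5.68 and -5.50 against -5.13, -5.56 and -5.31, a difference of 0.28, also with overlapping groups. Minus the mean of the T cell markers it was -2.29, -1.88 and -2.34 against -2.19, -1.83 and -2.23, a difference of 0.083 with overlapping groups. With the general leukocyte mean as a covariate in the fit, the median log2 fold change of the 10 was 0.38, and with the white adipocyte mean it was 0.32. Under these fits, in that order, the log2 fold change was 0.51 and 0.94 for Prf1, 0.73 and 0.56 for Ncr1 and 0.77 and 0.51 for Klrd1. Ifng (2.01 and 2.63) and Gzmb (-1.03 and -0.92) lay farther from 0 than without a covariate, and Eomes went both ways (0.25 and 1.36).

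Markers of further cell types are given for the same tumors. Beside 0.102% of all genes called, Cd79a was called among 12 B cell markers (median 0.84, most abundant Spib), a call lost in 12 of the 19 alternatives, those leaving out any single tumor included, and among 10 plasma cell markers (median 2.36) Jchain and Mzb1 were called, with Jchain at 1461, 2231 and 2511 in WT tumors and 42270, 62780 and 67240 in knockout tumors. The 2 plasma cell calls fell to 1 without WT tumor 2, to 1 without the variance trend and to 0 with the white adipocyte covariate. Of 17 white adipocyte markers (median 1.63, most abundant Lpl) Lep was called, which was lost in 13 of the 19 alternatives and with any single tumor left out, and 14 passed an unadjusted p-value of 0.05 as higher, against 3.4% of all genes. Macrophage markers had a median of 0.45, mast cell markers 0.82, plasmacytoid dendritic cell markers 0.13, neutrophil markers -0.35, ovary markers 0.66 and markers of ID8 cells and mesothelium -0.32. Gamma delta T cell markers had a median of 0.29 and markers of other innate lymphoid cells 0.089, and of these last 8 lists 0 genes were called. Defining markers of rarer cells were at 0 in some tumors, such as Ly6g of neutrophils in WT tumor 1 and knockout tumor 3, and Fshr of the follicle in 4 tumors. How much the T cells, other leukocytes or fat contributed to the values of the 10 genes was not tested beyond these differences and covariates. The white adipocyte mean itself separated the groups (log2 values 9.59, 10.1 and 9.63 in WT and 10.7, 12.3 and 11.6 in knockout tumors). A fit with it as covariate therefore cannot split its part from that of genotype.

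**Figure D5:**
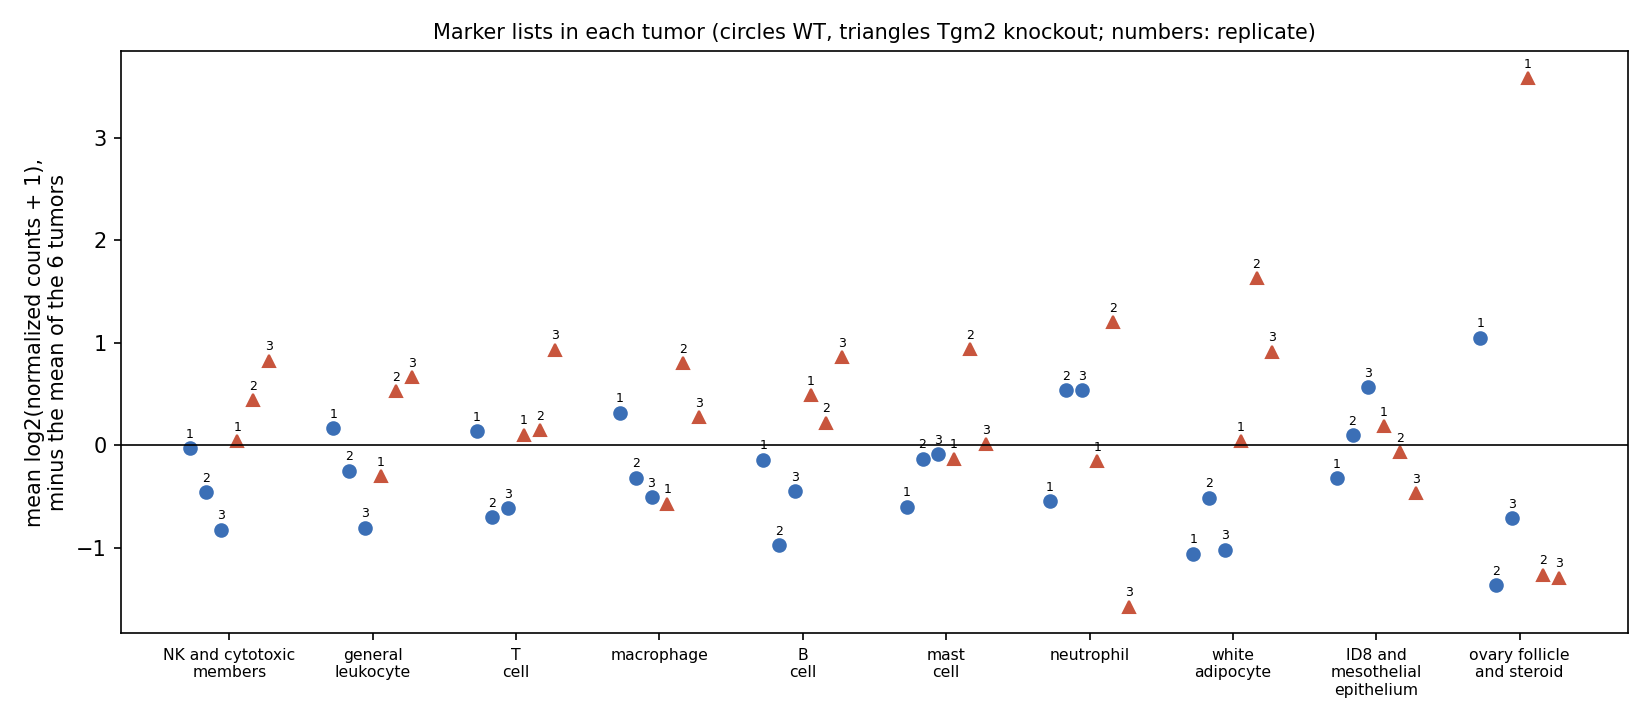
Mean log2(normalized counts + 1) of the 10 genes and of 9 marker lists (horizontal axis), minus the mean of the 6 tumors (vertical axis), for WT (circles) and Tgm2 knockout (triangles) tumors with replicate numbers. WT tumor 3 is lowest and knockout tumor 3 highest in the 10 genes and in the general leukocyte list, and knockout tumor 1 stands alone at the top of the ovary list.

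Genes outside all lists were ranked by how closely their log2 values followed the mean of the 10 genes over the 6 tumors, as a description. Among 16446 genes with a mean of at least 10, 348 (2.116%) had a Pearson correlation above 0.9, so a correlation of this size was shared by many genes. The closest 10 were Tmem154 (0.998), Kcnab2, Ccl22, Hadha, Gpr18, Ptprcap, Ddr1, Ctse, Tmem179 and Acaca (0.989). Tmem154 was measured at 158, 122 and 89.7 in WT tumors and at 177, 235 and 307 in knockout tumors, the same order of tumors as the mean of the 10 genes. Ptprcap, which encodes a protein associated with CD45, had 167, 124 and 75.2 against 205, 265 and 418. Ccl22, a chemokine of dendritic cells and macrophages, had 218, 139 and 91.2 against 291, 393 and 643. All 6 tumors enter these correlations with the difference between groups and the leukocyte sum of each tumor in common.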

How the data were processed

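RNA was sequenced by the authors from 6 primary tumors as paired reads of 100 nucleotides. Transcripts were quantified with kallisto 0.46.2 on GRCm38 per the submitters' processing notes, mapped to genes through biomaRt, filtered for low expression and normalized with estimateSizeFactors of DESeq2. The deposited values, although labelled TPM, are a signal in units of normalized counts. Tests had been planned for log2 values and were kept. No count model was fitted. Whole reads were looked for only in genes with 1 transcript, where 94.4% to 99.1% of low values by tumor were whole multiples of 1 read (within 0.1 reads).

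Tumors were grouped by their genotype labels. Genes with at least 1 in at least 3 tumors (19667 of 20076) were compared as log2(value + 1) with limma 3.58.1 in R 4.3.3, using all 6 tumors, no covariate, a variance trend, two-sided tests and Benjamini-Hochberg adjustment. A gene was called at an adjusted p-value of 0.05 and a log2 fold change of at least 1 in size. Tables and exact permutation tests used Python 3.11.15, pandas 2.3.3 and scipy 1.17.1. Positions and exon lengths came from GENCODE M21, in which 94.8% of symbols matched once. The code was tested on simulated data. The 10 genes, the 23 gene lists (10 of NK and cytotoxic genes, 13 of markers) and the tests were chosen with earlier results of these data known. Named genes are the 10, Tgm2, granzyme genes and called marker genes. For many lists, but not all, the most abundant gene, that with the smallest p-value or both are also named. Other named genes were chosen after their values were seen. Values of 1 listed gene are not given here. The alternatives changed the pseudocount, filter, scaling, variance trend, tumor weights and limits, added covariates or the replicate number, and left out tumors. The covariate of general leukocyte genes and the joint omission of WT tumor 3 and knockout tumor 1 were added after the data were seen.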

Additional observations from a re-analysis of the deposited data

How the results depend on the processing

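None of the 10 genes, and none of the 165 tested genes of the NK and cytotoxic lists, was called under any of the 19 alternatives. Not all of the 165 were tested in every alternative, and Klrb1 was not tested without WT tumor 3 and knockout tumor 1 together. The number of all genes called as higher in knockout tumors, 20, was 8 with the general leukocyte covariate, 4 without the variance trend, 5 with the replicate block and 0 with the white adipocyte covariate. It ranged from 2 to 14 when each tumor was left out in turn, and was 12 without WT tumor 3 and knockout tumor 1 together. Genes called as lower ranged from 0 to 1 in those omissions, with 1 without both of these tumors. The median log2 fold change of the 10 genes was 0.38 with the general leukocyte covariate and 0.32 with the white adipocyte covariate, and 0.66 to 1.33 with each tumor left out. The adipocyte covariate moved the median of all genes from -0.027 to 0.062. Of the 10 genes, 5 were separate with knockout tumors higher (5.18% of all genes). The count was 5 to 8 with each tumor left out (8.91% to 11.9% of all genes). It was 8 without WT tumor 3 and knockout tumor 1 together (13.8%). Gzmb was separate as lower without WT tumor 3 (9.45% of all genes) and without both of these tumors (17.1%). Single genes reversed with the general leukocyte covariate (Nkg7, -0.029) and with the white adipocyte covariate (Klrb1c, -0.26, and Klrk1, -0.15). The cause was not tested. Genes of the NK lists past an unadjusted p-value of 0.05 as higher numbered 6 to 39 across the alternatives, against 26. Replicate numbers gave no clear pairing of the tumors. Deviations of same-numbered tumors correlated at -0.196, 0.284 and -0.307, and not every tumor correlated best with its own number. The value of 0.284 was the highest for both WT tumor 2 and knockout tumor 2, and 3 tumors in each group cannot settle whether numbers pair. The replicate block called 0 of the 10 genes, as did the main fit, so that count does not bear on pairing. Ifng and Klrb1 rest on a few reads in WT tumors.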
